A study of Mus musculus with 2 samples.

Results

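The 9 genes Crabp1, Crabp2, Aldh1a1, Aldh1a2, Aldh1a3, Cyp26b1, Rara, Rarg and Dhrs9 bind, make, break down or respond to retinoic acid. They were chosen by symbol among the 32285 genes of the count files, each symbol marked 1 row, and the unique molecular identifiers (UMIs, 1 per captured transcript molecule) of each gene were summed per cell class and library. Retinol that enters a cell is oxidised to retinal by short-chain dehydrogenases such as Dhrs9 and then to retinoic acid by the Aldh1a enzymes. Crabp1 and Crabp2 carry retinoic acid within the cell, and Cyp26b1 hydroxylates it for clearance. Rara and Rarg are nuclear receptors that bind retinoic acid and, with an Rxr partner, DNA. In skin, retinoids are known to act on the differentiation of the epidermis and on the growth cycle of the hair follicle.

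The study used an androgenetic alopecia (AGA) model in male C3H/HeN mice, which were 7 weeks old when treatment began and 9 weeks old when dorsal skin was taken. Control mice received vehicle, and TP-treated mice received testosterone propionate at 0.5 mg per day. Skin of 15 mice was pooled per group and gave 1 droplet library, so mice cannot be told apart within a library and treatment cannot be told apart from library. With 1 library per group no test was possible. Levels are UMI counts divided by all UMIs of the class named and multiplied by 1000000 (CPM), and all intervals are 95% intervals of counting error alone, exact Poisson for a level and exact conditional binomial for a ratio of TP over control. A gene was counted as higher or lower in TP where its CPM, with 1 UMI added per library, differed at least 2-fold and the class held at least 100 of its UMIs over both libraries.

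After filtering, 39076 control cells with 108109827 UMIs (median 2061 per cell) and 18542 TP cells with 136824503 UMIs (median 4959.5) were kept. More than 10% mitochondrial UMIs were found in 7.58% of control and 22.6% of TP barcodes, and 183 barcode sequences of kept cells occurred in both libraries. Of 30 clusters, 25 took the name of 1 of 13 classes from marker genes, and 23.2% of control and 19.1% of TP cells stayed without a name. The class shares differed between the libraries: inner root sheath-like cells made up 24.4% of control and 7.05% of TP cells, granular-like cells 2.85% and 9.06%, and dermal papilla cell (DPC)-like cells 10.5% and 9.42%. The 10 DPC markers summed to 10482 CPM in DPC-like cells of control and 6885 CPM in those of TP. Inner root sheath markers summed to 2162 CPM and 417 CPM in the same cells, and markers of dermal fibroblasts (DFs) to 1268 CPM and 2268 CPM. The part of these shifts in the results below was not tested. A DPC-like cluster led by Gpc5, Dkk2 and Igfbp3, with 440 control and 665 TP cells, had 0 DPC markers among its 10 leading genes. Its mean log2 fold over the other clusters was 3.29 for DPC markers and 2.64 for markers of dermal sheath cup cells.

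Upstream sequences are shown for Cyp26b1 and Dhrs9, the genes with 1 listed promoter that were at least 2-fold higher over all cells in TP. They are RefSeq sequences of GRCm38.p6, read 5′ to 3′ on the strand of the gene and ending at the base before it. A promoter entry matched 7 of the 9 genes, all but Crabp2 and Aldh1a3. Cyp26b1 (ENSMUSG00000063415) spans chr6:84571414-84593908, and the 152 bases shown are chr6:84593909-84594060 on the minus strand. Dhrs9 (ENSMUSG00000027068) spans chr2:69380462-69403086, and the 250 bases shown are chr2:69380212-69380461 on the plus strand. Capitals mark TATAAA on the sense strand and AGGTCA on either strand, written TGACCT where it lies on the other one.

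Cyp26b1: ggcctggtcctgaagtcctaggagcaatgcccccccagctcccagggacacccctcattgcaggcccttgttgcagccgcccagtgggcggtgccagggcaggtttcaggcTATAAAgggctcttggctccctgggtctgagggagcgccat
Dhrs9: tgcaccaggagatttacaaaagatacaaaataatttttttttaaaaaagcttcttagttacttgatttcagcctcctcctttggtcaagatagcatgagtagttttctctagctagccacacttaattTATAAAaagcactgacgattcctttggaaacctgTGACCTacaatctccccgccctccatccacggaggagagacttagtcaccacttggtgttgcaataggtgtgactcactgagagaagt

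In Cyp26b1 the letters TATAAA stood 41 to 36 bases before the gene. In Dhrs9 they stood 122 to 117 bases before it and AGGTCA, a half-site letter run shared by many nuclear receptors, stood 88 to 83 bases before it, with no overlap between them. Over all 32851 RefSeq windows of 300 bases (250 before to 50 after a start), 8.32% held TATAAA on the sense strand and 16.3% held AGGTCA on either strand. The variant AGTTCA was in 13.99% of windows. Direct repeats 5 or 2 bases apart are spacings known for Rar and Rxr pairs. Such repeats of the wider half-site RGKTCA (R is A or G, K is G or T) were in 0.0974% and 0.268%. No window of the 7 genes held such a repeat, and 1 of 4 Rara windows and 1 of 2 Rarg windows held AGGTCA.

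The genes differed in the cell class where they were highest. Crabp1 and Cyp26b1 were highest in DPC-like cells, Crabp2 in granular-like cells of the outermost living epidermis, Aldh1a1 in DF-like cells, Aldh1a3 in companion layer and medulla-like cells, Rara in immune-like cells and Rarg in interfollicular epidermis (IFE) basal-like cells. Dhrs9 was highest in an unnamed cluster when whole classes and unnamed clusters were compared, although in TP a cluster inside the immune-like class stood higher. Among named classes it was highest in immune-like cells, at 9.99 CPM (4.57 to 19.0) and 19.8 CPM (13.8 to 27.5) on 9 and 35 UMIs. These intervals overlapped those of granular-like cells in both libraries. The named class with the highest level was the same in control and TP for 8 of the 8 genes with enough UMIs to rank, with Dhrs9 resting on that overlap. The leading interval also overlapped that of another named class for Aldh1a1 in control, Rara in TP and Rarg in both libraries. For Aldh1a1 in control the intervals were 49.1 to 95.2 CPM in DF-like and 44.0 to 51.9 CPM in DPC-like cells. Aldh1a2 was left out of that ranking, with 17 UMIs in control and 27 in TP.

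**Figure D1:**
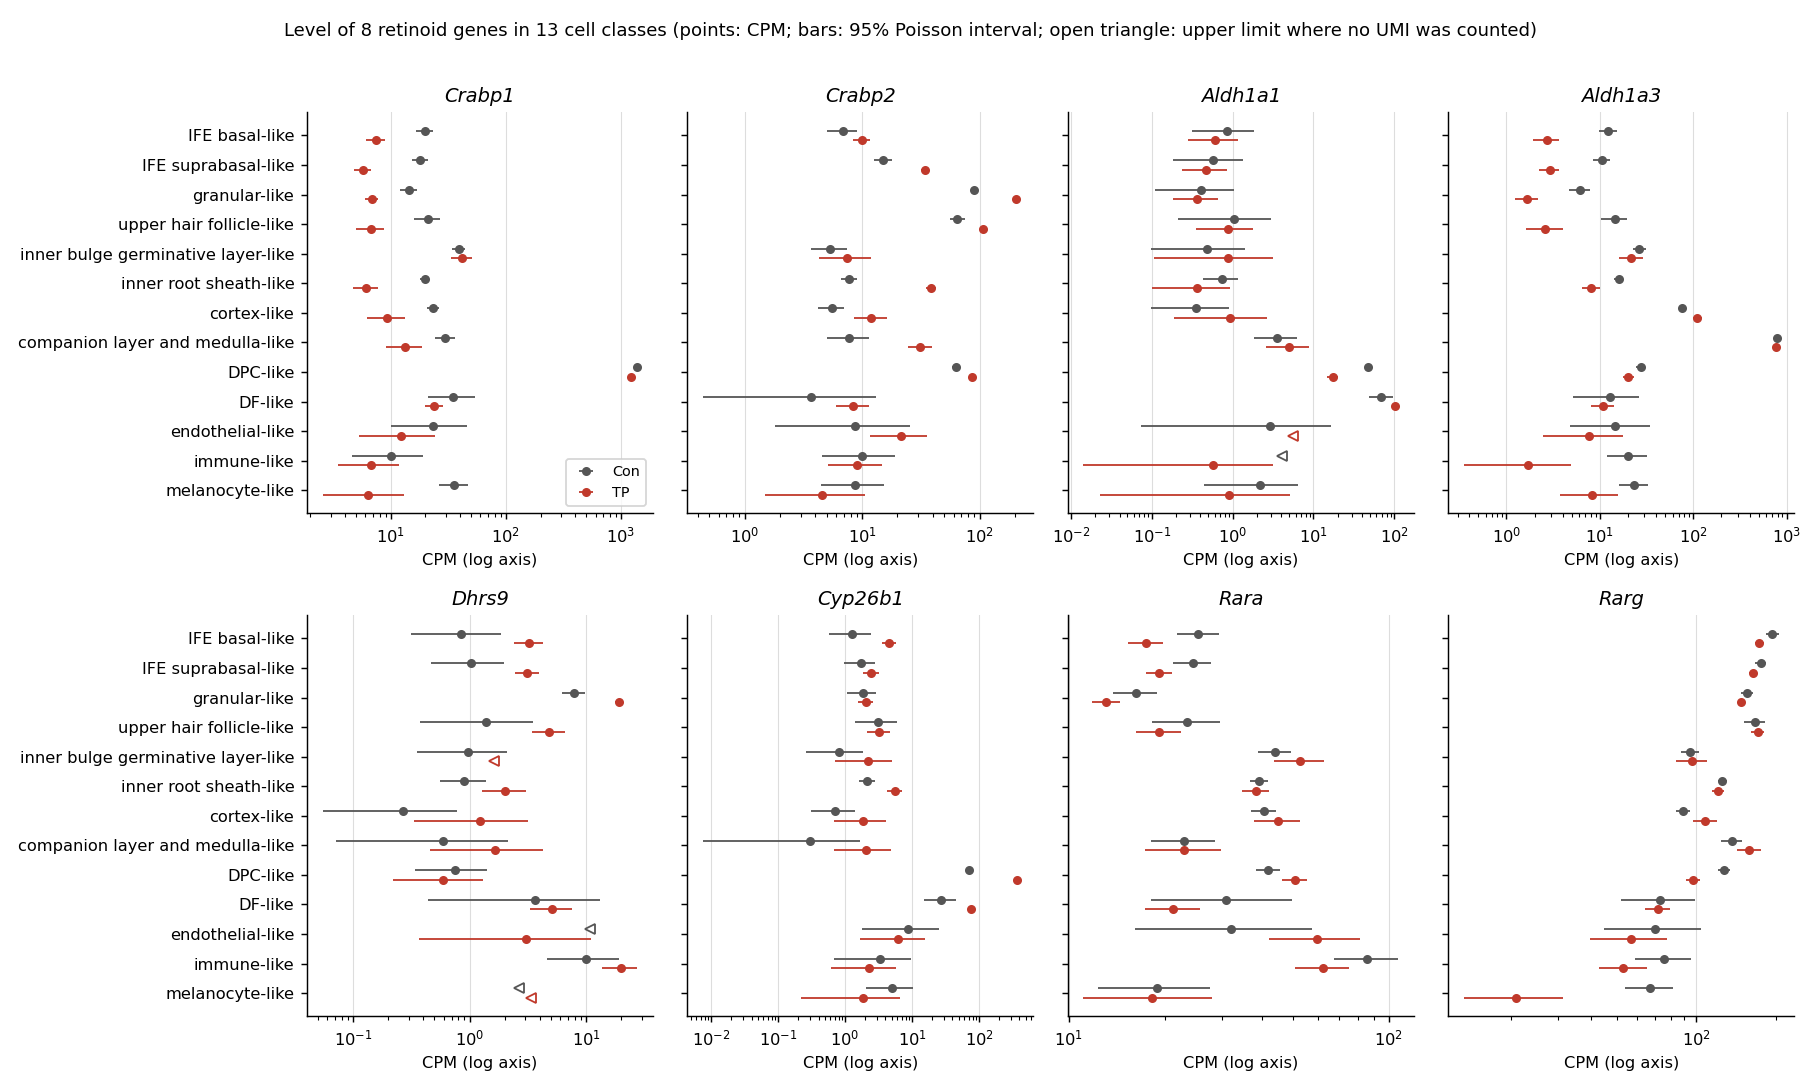
Level of 8 genes (CPM, log axis) in 13 named cell classes, control in grey and TP in red. Points are levels of 1 library, bars are 95% Poisson intervals, and an open triangle is the upper limit where no UMI was counted. Crabp1 stands at 1365 CPM and 1209 CPM in DPC-like cells and at 41.3 CPM or less in every other class, Aldh1a3 stands at 786 CPM and 765 CPM in companion layer and medulla-like cells, and Rarg is spread over all classes.

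Over all kept cells, 3 of the 8 genes tested passed 2-fold upwards in TP and 0 downwards, where 7.68% of 16190 genes were higher and 9.36% were lower. Crabp2 stood at 22.6 CPM in control and 71.0 CPM in TP (ratio 3.14, interval 3.01 to 3.29). Cyp26b1 stood at 9.46 CPM and 32.2 CPM (ratio 3.40, 3.17 to 3.64), and Dhrs9 at 3.41 CPM and 8.11 CPM (ratio 2.38, 2.11 to 2.68). These are sums over a changed mix of cells, so the TP levels were also weighted to the class shares of control. Under these weights the ratio of Cyp26b1 was 4.21 and that of Crabp2 2.05, and that of Dhrs9 was 1.17 and no longer 2-fold. Crabp1 and Aldh1a3 had ratios below 1 over all cells, 0.571 and 0.527, and with control shares these were 1.01 and 0.980. Aldh1a1 had a ratio of 0.856 over all cells and 0.564 with control shares, Rara 0.818 and 1.08, and Rarg 1.08 and 0.951. The median log2 ratio was -0.06 over the 8 genes and -0.23 over all genes tested.

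**Figure D2:**
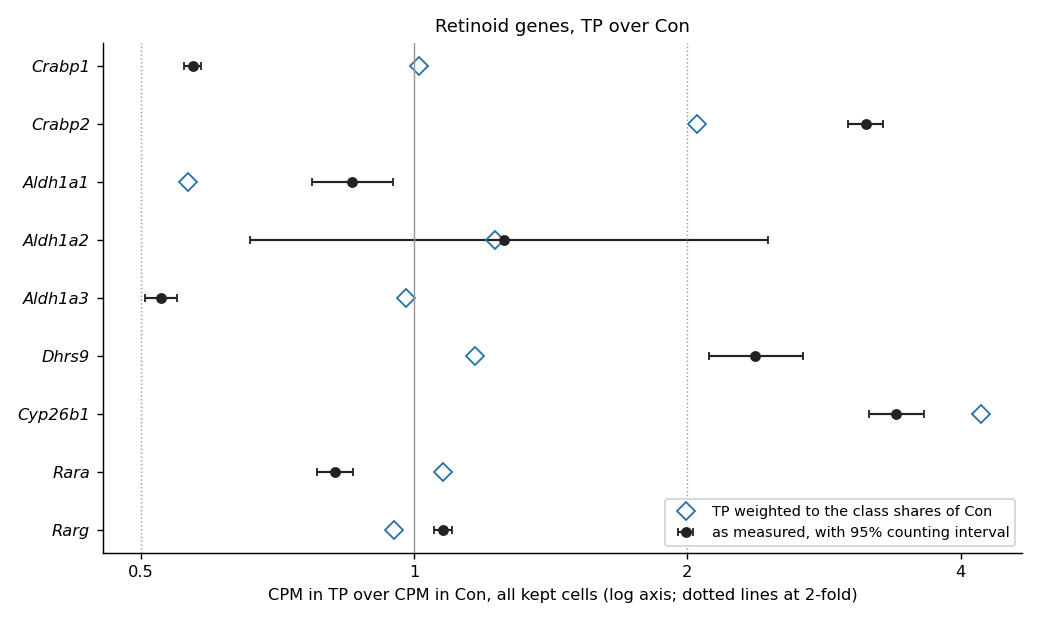
Ratio of TP over control (log axis) of 9 genes over all kept cells. Aldh1a2 is among them with too few UMIs to be tested (17 and 27, ratio 1.25, 0.660 to 2.45). Circles are ratios of CPM with their 95% intervals, diamonds are ratios after the TP classes were weighted to control shares. Cyp26b1 stays above 2-fold under both (3.40 and 4.21), Dhrs9 does so only without the weights (2.38 and 1.17), and the lower ratios of Crabp1 and Aldh1a3 come to 1.01 and 0.980.

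Crabp1, a carrier of retinoic acid in the cytoplasm (ENSMUSG00000032291, chr9:54764748-54773110), was a gene of DPC-like cells in both libraries. These cells held 86.2% of its UMIs in control and 88.0% in TP. The control level there was 1365 CPM (1345 to 1386). In TP it was 1209 CPM (1187 to 1230), so the ratio of 0.885 (0.865 to 0.906) was less than 2-fold. To compare shares of cells, each cell was thinned to 1000 UMIs, and shallower cells were left out, which kept 33715 control and 17703 TP cells in all. Of the DPC-like cells 3732 of 4099 in control and 1644 of 1747 in TP were deep enough, and 43.6% and 41.6% of these had a Crabp1 UMI. Before thinning, with shallower cells included, the shares were 55.8% and 60.9%, at median depths of 2460 and 4545 UMIs. Inner root sheath-like cells showed it in 2.04% and 0.719% of thinned cells. They serve here as a rough measure of RNA free in the droplets. They are not a floor, since granular-like cells stood under them for Crabp1 in control. The levels there were 14.3 CPM (12.1 to 16.9) against 19.7 CPM (17.9 to 21.6). At 38.8 CPM and 41.3 CPM, inner bulge germinative layer-like cells came next among named classes in TP, and in control their interval overlapped those of DF-like, melanocyte-like and companion layer and medulla-like cells. In 7 classes Crabp1 was at least 2-fold lower in TP, from a control level of at most 29.8 CPM. Inner root sheath-like cells were among them, from 19.7 CPM to 6.06 CPM. The basal-like, suprabasal-like, granular-like and upper hair follicle-like levels differed from theirs by -5.34 CPM to 1.29 CPM in control and by -0.33 CPM to 1.36 CPM in TP, so Crabp1 in these 4 classes was not told apart from free RNA.

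Crabp2, the carrier that hands retinoic acid to its nuclear receptors (ENSMUSG00000004885, chr3:87948693-87953372), was an epidermal and a papilla gene. In granular-like cells the control level was 89.5 CPM (83.7 to 95.6) and the TP level 206 CPM (201 to 211), a ratio of 2.30 (2.14 to 2.47), and these cells went from 36.3% to 63.6% of its UMIs. The 8 granular markers summed to 800 CPM in control and 3083 CPM in TP in the same cells, and the suprabasal markers to 43421 CPM and 65781 CPM. Whether these cells stood at the same step of maturation in both libraries was not tested. In suprabasal-like IFE cells it rose from 15.0 CPM (12.53 to 17.8) to 34.0 CPM (31.7 to 36.4), a log2 ratio of 1.17, and stayed under granular-like cells in both libraries. In basal-like IFE cells it stood at 6.81 CPM and 9.98 CPM, below 2-fold and no higher than in most inner root sheath-like clusters, so it was not told apart from free RNA there. In upper hair follicle-like cells the levels were 64.6 CPM and 108 CPM, and in DPC-like cells 62.5 CPM and 86.2 CPM, both less than 2-fold. The intervals of those classes overlapped each other in control and did not in TP. After thinning, 8.07% of control and 16.1% of TP granular-like cells had a Crabp2 UMI. In granular-like cells 2 of 6 genes tested were higher, Crabp2 and Dhrs9, where 1.8% of all genes were, and 2 were lower, Crabp1 and Aldh1a3, where 9.43% were, both near or under the level of inner root sheath-like cells. Among suprabasal-like IFE cells 1 of 5 was higher and 2 were lower, beside 1.57% and 6.26%. In clusterings at resolutions 0.5 and 2 the log2 ratio in granular-like cells was 0.89 and 0.86 and that in suprabasal-like cells 0.68 and 0.55, so neither passed 2-fold there.

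Crabp2 also passed 2-fold in 3 classes of the lower follicle, from a low level. In inner root sheath-like cells it went from 7.75 CPM to 38.6 CPM (log2 ratio 2.31), in companion layer and medulla-like cells from 7.74 CPM to 31.2 CPM (1.98), and in cortex-like cells from 5.51 CPM to 12.0 CPM (1.14). Within the inner root sheath-like cells, the cluster led by Prr9, Crym, Fbp1 and S100a3 stood at 13.3 CPM and 70.1 CPM, and the other clusters stood between 6.86 CPM and 7.20 CPM in control and between 11.6 CPM and 14.4 CPM in TP. The class as a whole was therefore not used as a measure of free RNA for Crabp2, and the cortex-like levels were in or under the range of those other clusters. Markers of the epidermis had higher sums in TP in these classes too. The suprabasal markers summed to 2655 CPM and 15266 CPM in inner root sheath-like cells, to 2105 CPM and 11955 CPM in companion layer and medulla-like cells and to 2580 CPM and 6616 CPM in cortex-like cells. The granular markers summed to 37.6 CPM and 241 CPM, to 250 CPM and 615 CPM, and to 29.2 CPM and 114 CPM. Their part in the Crabp2 level was not tested. Of the 6 genes tested in inner root sheath-like cells 2 were higher and 1 was lower, beside 4.69% and 7.34% of all genes. In companion layer and medulla-like cells 1 of 5 was higher and 1 lower (2.66% and 2.44% of all genes), as in cortex-like cells (2.09% and 1.68%).

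Dhrs9, a short-chain dehydrogenase that oxidises retinol, had its highest level among classes and unnamed clusters in an unnamed cluster led by Abi3bp, Lgr5, Hmcn1 and Sox9. In TP a single immune-like cluster, given below, stood higher, at 51.2 CPM. The unnamed cluster scored highest for the outer bulge list (mean log2 fold 2.71), whose markers summed to 2935 CPM in control and 3078 CPM in TP. It stayed unnamed because its 10 leading genes held 1 outer bulge marker and 2 of another class. That cluster held 54.2% of its control UMIs and 23.8% of its TP UMIs. Its control cells stood at 129 CPM (112 to 148) and its TP cells at 36.1 CPM (31.9 to 40.7), for a log2 ratio of -1.84, and the cluster held 616 and 1478 cells. In the same cells inner root sheath markers summed to 2801 CPM and 592 CPM, markers of dermal sheath cup cells, a list that holds Abi3bp, to 508 CPM and 1411 CPM and upper hair follicle markers to 453 CPM and 1076 CPM, and their part in the Dhrs9 level was not tested. After thinning, 11.8% of its control and 3.44% of its TP cells had a Dhrs9 UMI, against 19.97% and 7.37% before. Of 5 genes tested in this cluster 2 were lower, Dhrs9 and Crabp1, where 2.24% of all genes were, and 0 were higher, where 2.05% were. At resolution 2, an unnamed cluster led by Sox9, Hmcn1, Lgr5, Trabd2b and Barx2 stood at 140 CPM and 52.7 CPM, in 570 and 998 cells. At that resolution an outer bulge-like cluster led by Abi3bp also appeared, with 49 control and 472 TP cells and Dhrs9 at 0 CPM (upper limit 28.5 CPM) and 4.45 CPM. In granular-like cells Dhrs9 rose from 7.87 CPM (6.22 to 9.83) to 19.1 CPM (17.5 to 20.7), and the class went from 21.1% to 51.4% of its UMIs. In the other clusterings that log2 ratio of 1.26 was 0.90 and 0.95, below 2-fold. Basal-like, suprabasal-like and upper hair follicle-like cells stood between 0.851 CPM and 1.37 CPM in control and between 3.12 CPM and 4.84 CPM in TP, with fewer than 100 UMIs each. Among immune-like cells, 8 of 9 control and 33 of 35 TP UMIs came from the cluster led by Cd74 and class II H2 genes, at 11.3 CPM and 51.2 CPM. DPC-like cells stood at 0.745 CPM and 0.596 CPM. Dhrs9 overlaps the annotated gene Gm36393, so its counts are uncertain to that extent.

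**Figure D3:**
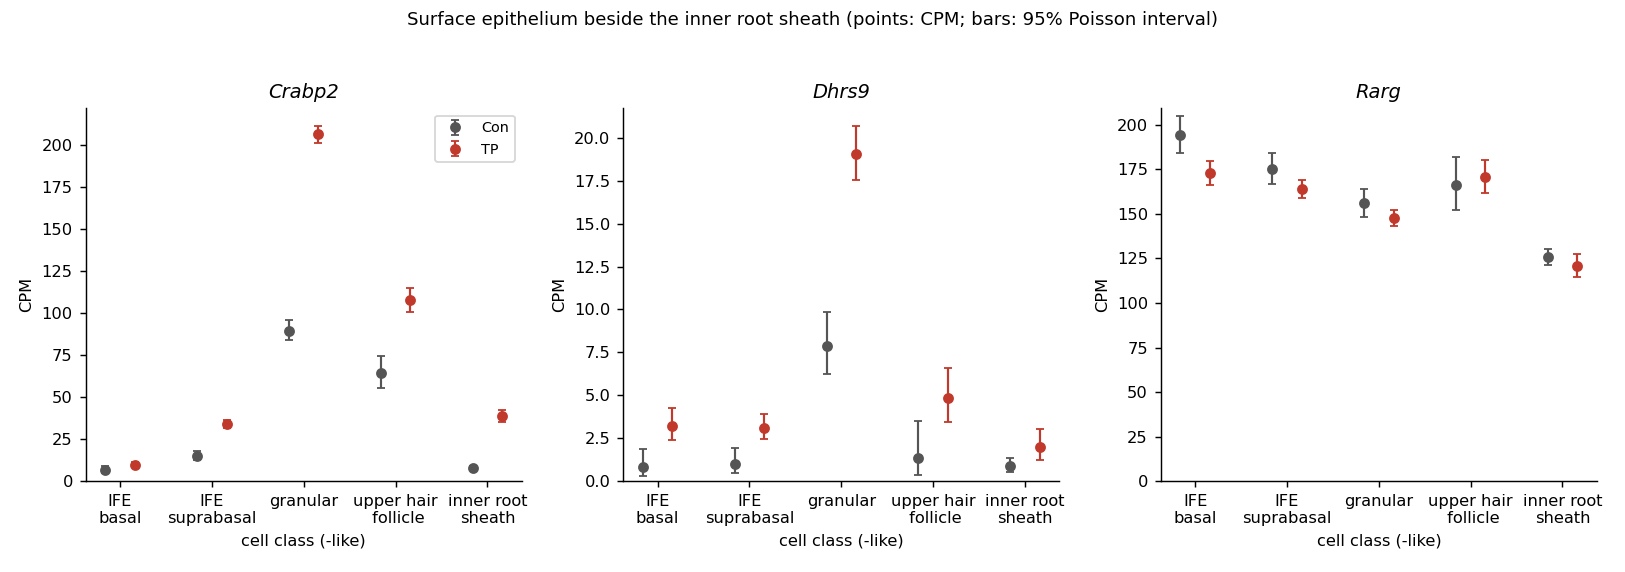
Levels of Crabp2, Dhrs9 and Rarg (CPM, linear axes from 0) in IFE basal-like, suprabasal-like, granular-like, upper hair follicle-like and inner root sheath-like cells, control in grey and TP in red, with 95% Poisson intervals. Crabp2 and Dhrs9 are highest in granular-like cells, at 206 CPM and 19.1 CPM in TP, whereas Rarg is highest in basal-like cells, at 194 CPM and 173 CPM.

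Aldh1a1, which oxidises retinal to retinoic acid (ENSMUSG00000053279, chr19:20492583-20643463), was found in the mesenchymal classes. In DF-like cells 38 control UMIs gave 69.3 CPM (49.1 to 95.2) and 497 TP UMIs gave 102 CPM (93.2 to 111), less than 2-fold apart. In DPC-like cells it fell from 47.8 CPM (44.0 to 51.9) to 17.3 CPM (14.8 to 20.1), with a ratio of 0.362 (0.303 to 0.429). The DPC-like share of its UMIs went from 81.1% to 22.5% and the DF-like share from 5.33% to 64.4%, while DF-like cells went from 212 to 616. After thinning, 3.16% of control and 0.912% of TP DPC-like cells had an Aldh1a1 UMI. Outside the mesenchymal classes no named class passed 5 CPM. With the DPC-like subclusters of TP weighted to control shares the DPC-like ratio was 0.718, no longer 2-fold. Aldh1a7, a close paralog with which reads may have been split, stood at 26.4 CPM and 10.7 CPM in DPC-like cells. Aldh1a1 also overlaps 3 other annotated genes (E030003E18Rik, C730002L08Rik and Gm6684), so the counts of Aldh1a1 are uncertain to that extent.

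Aldh1a2, the Aldh1a enzyme best known from the embryo, was near the detection limit. Of its 17 control UMIs, 8 fell in the unnamed cluster that also led for Dhrs9, and of its 27 TP UMIs 3 did. DPC-like cells held 0 of its control UMIs and 4 of its TP UMIs.

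Aldh1a3, the third enzyme of this step (ENSMUSG00000015134, chr7:66390892-66427477), was a gene of the hair follicle. Companion layer and medulla-like cells held 47.0% of its UMIs in control and 49.1% in TP. Control cells of the class stood at 786 CPM (757 to 817) and TP cells at 765 CPM (731 to 801), with intervals that overlapped and a ratio of 0.973 (0.916 to 1.03). After thinning, 38.0% of control and 33.3% of TP cells of that class had a UMI of it, against 1.71% and 0.319% of inner root sheath-like cells, and before thinning 59.5% and 62.5% had one. The companion layer and medulla markers summed to 1904 CPM and 2608 CPM in these cells and the inner root sheath markers to 9235 CPM and 5845 CPM, so the class also held transcripts of its neighbour. Cortex-like cells came next among named classes, at 76.6 CPM (71.5 to 81.9) and 111 CPM (99.6 to 123), with 15.3% and 9.62% of its UMIs. Unnamed cluster 6, led by Hist1h2ae and Hist1h2ap, stood at 59.2 CPM and 67.5 CPM and held 10.9% and 24.2% of them. Of the 3 cortex-like clusters, the one led by Selenbp1, Kcnh1, Dsg4 and Krt35 stood at 88.1 CPM and 166 CPM, and the others stood at 38.7 CPM and 28.3 CPM and at 60.8 CPM and 55.8 CPM. DPC-like cells stood at 27.4 CPM and 20.2 CPM. Aldh1a3 was at least 2-fold lower in basal-like, suprabasal-like and granular-like cells, but its levels there were below those of inner root sheath-like cells (15.9 CPM and 8.08 CPM) in both libraries. Of 5 genes tested in basal-like cells 2 were lower and 0 were higher, beside 2.01% and 1.27% of all genes. Companion layer and medulla-like cells were 2.46% of control and 1.79% of TP cells, and cortex-like cells 10.5% and 3.06%.

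Cyp26b1, which clears retinoic acid, showed the largest ratio of the 7 genes tested in DPC-like cells. These cells gave 857 of its 1023 control UMIs (83.8%) and 3689 of its 4399 TP UMIs (83.9%). Its level rose from 70.9 CPM (66.3 to 75.9) to 367 CPM (355 to 379), so that TP stood 5.17-fold above control (4.798 to 5.58, log2 ratio 2.37). After thinning, 5.31% (4.61 to 6.07, exact binomial interval) of control and 21.4% (19.5 to 23.5) of TP DPC-like cells had a Cyp26b1 UMI, against 0.160% and 0.879% of inner root sheath-like cells. Before thinning the DPC-like shares were 12.3% and 44.9%. The plot of log2 ratios over all genes shows where this lies. Of 7 genes tested in DPC-like cells 1 was higher, Cyp26b1, where 3.66% of 11773 genes were, and 1 was lower, Aldh1a1, where 5.79% were. The log2 ratio of Cyp26b1 was at percentile 99.4 of these genes. Without the DPC-like subcluster rich in inner root sheath keratins it was 2.32.

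In DF-like cells Cyp26b1 rose as well, from 27.4 CPM (15.3 to 45.1) on 15 UMIs to 75.1 CPM (67.6 to 83.2) on 366 UMIs, with a ratio of 2.75 (1.64 to 4.96). It was the 1 gene of 5 tested that passed 2-fold in these cells, where 2.93% of all genes were higher and 6.69% lower. All 9 DF markers were detected in both libraries there and summed to 52379 CPM in control and 90137 CPM in TP, and the inner root sheath markers in the same cells summed to 2315 CPM and 365 CPM. Schwann markers summed to 443 CPM and 317 CPM. At resolution 2, where a Schwann-like cluster of 98 control and 75 TP cells stood apart, DF-like cells were 123 and 544 in place of 212 and 616, with Cyp26b1 at 33.9 CPM and 77.4 CPM (ratio 2.28, 1.36 to 4.12). The part of the other marker shifts in the Cyp26b1 level was not tested. Inner root sheath-like cells stood at 2.15 CPM and 5.51 CPM for Cyp26b1, and basal-like, suprabasal-like and granular-like cells between 1.28 CPM and 1.82 CPM in control and between 2.04 CPM and 4.58 CPM in TP.

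**Figure D4:**
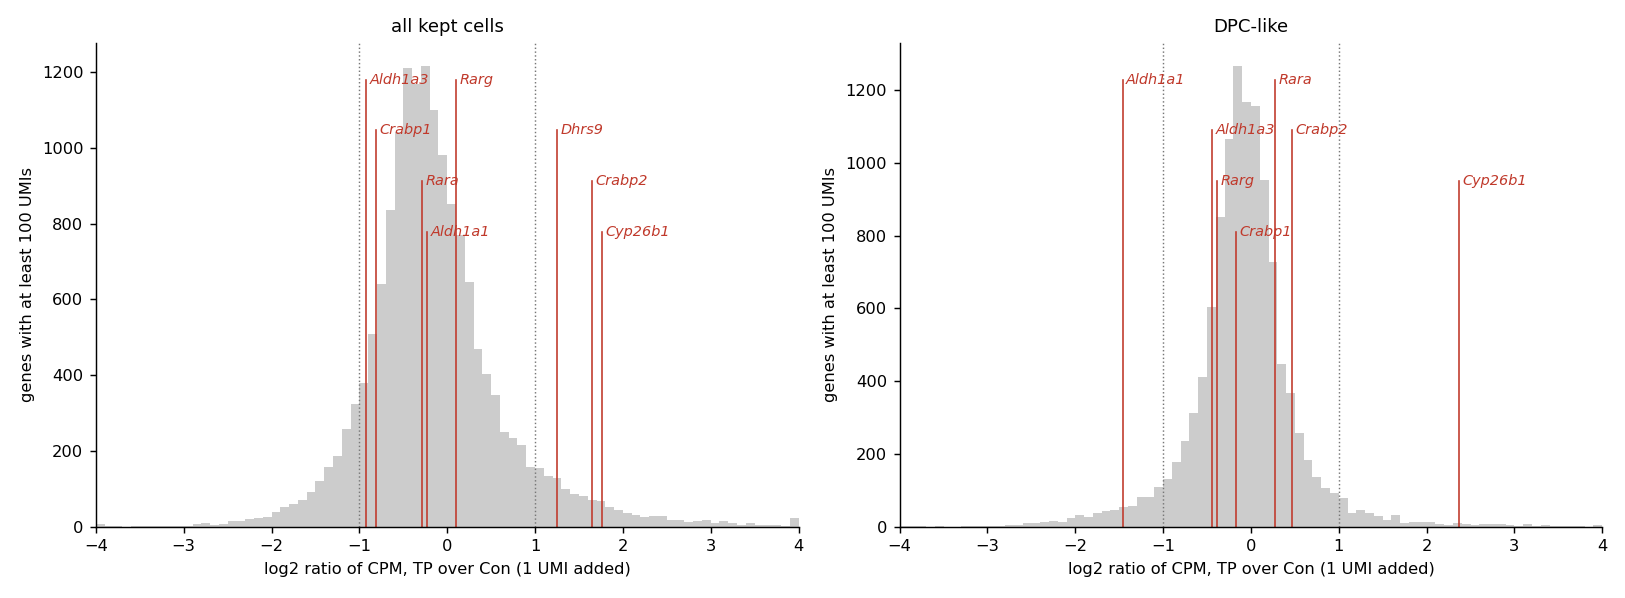
Distribution of log2 ratios of TP over control for all genes with at least 100 UMIs, over all kept cells and in DPC-like cells, with the retinoid genes marked. The outermost bars collect all values beyond the axis. In DPC-like cells Cyp26b1 lies at 2.37 and Aldh1a1 at -1.46, and the other 5 genes lie between -0.44 and 0.46.

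The DPC-like cells were split further, without the retinoid genes among the features. Subcluster 0 was led by Kcnip4, Ecrg4 and Luzp2, subcluster 1 by Ptprt, Lypd1, Igfbp5, Rspo4 and Bmp6, subcluster 2 by the agouti gene, Vip, Ncald and Clstn2, and subcluster 4 by Col1a1, Lrrc15 and Acta2. Subcluster 3 was led by Bnc2, Prr9 and the inner root sheath keratins Krt71 and Krt25, with medians of 848.5 and 661.5 UMIs per cell. The make-up differed: in control, subclusters 1 (39.2%) and 0 (34.8%) held most DPC-like cells, and in TP subclusters 2 (31.7%) and 0 (27.8%). Subcluster 5 held 15 control and 283 TP cells and was not compared.

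Cyp26b1 was higher in TP in 3 of these subclusters. It rose from 42.9 CPM (37.6 to 48.8) to 326 CPM (307 to 346) in subcluster 0, from 92.9 CPM (84.1 to 102) to 219 CPM (191 to 249) in subcluster 1, and from 175 CPM (143 to 211) to 536 CPM (514 to 560) in subcluster 2. In subcluster 4 the intervals overlapped, with 99.8 CPM (81.1 to 122) in control, 123 CPM (100 to 150) in TP and a ratio of 1.24 (0.926 to 1.65). Subcluster 3 held 12 and 7 UMIs of it. Weighted to the control shares of the subclusters, the DPC-like ratio was 3.76 in place of 5.17. After thinning, a Cyp26b1 UMI was seen in 3.72% and 21.3% of cells in subcluster 0, 6.12% and 21.8% in subcluster 1, 11.6% and 30.8% in subcluster 2 and 7.47% and 9.29% in subcluster 4. In subcluster 0, 1 of 6 genes tested was higher and 1 was lower, beside 2.97% and 3.57% of all genes. For subcluster 1 the counts were 2 and 0 of 7 (1.58% and 3.33%), for subcluster 2 they were 1 and 0 of 6 (3.75% and 2.59%).

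Crabp1 differed in level among the subclusters more than between libraries as a whole. It stood at 2092 CPM (2054 to 2131) and 2030 CPM (1982 to 2079) in subcluster 0 and at 755 CPM and 932 CPM in subcluster 1. In subcluster 2 it stood at 1743 CPM and 988 CPM, less than 2-fold apart. In subcluster 4 it fell from 581 CPM (534 to 630) to 164 CPM (137 to 194), and it was the 1 gene of 4 tested that passed 2-fold there (4.43% of all genes higher, 5.36% lower). DPC markers in that subcluster summed to 3938 CPM and 1208 CPM and DF markers to 5256 CPM and 15930 CPM. In subcluster 3 it rose from 393 CPM (347 to 444) to 1102 CPM (894 to 1343), the 1 gene tested there (4.49% higher, 8.13% lower), on 266 and 98 UMIs, and inner root sheath markers summed to 7005 CPM and 3328 CPM. The part of these marker shifts was not tested.

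Crabp2 and Aldh1a1 had yet other orders. Crabp2 stood at 90.7 CPM (82.8 to 99.1) and 128 CPM (116 to 141) in subcluster 0, above subcluster 1, where it rose from 37.8 CPM (32.3 to 44.0) to 80.4 CPM (64.0 to 99.6). Aldh1a1 had most of its DPC-like UMIs in subclusters 0 and 1. It fell from 64.7 CPM (58.1 to 71.9) to 30.4 CPM (24.8 to 36.9) in subcluster 0 and stood at 50.1 CPM and 48.4 CPM in subcluster 1. Subcluster 2 held 0 of its control UMIs, with an upper limit of 6.03 CPM, and 5 of its TP UMIs.

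**Figure D5:**
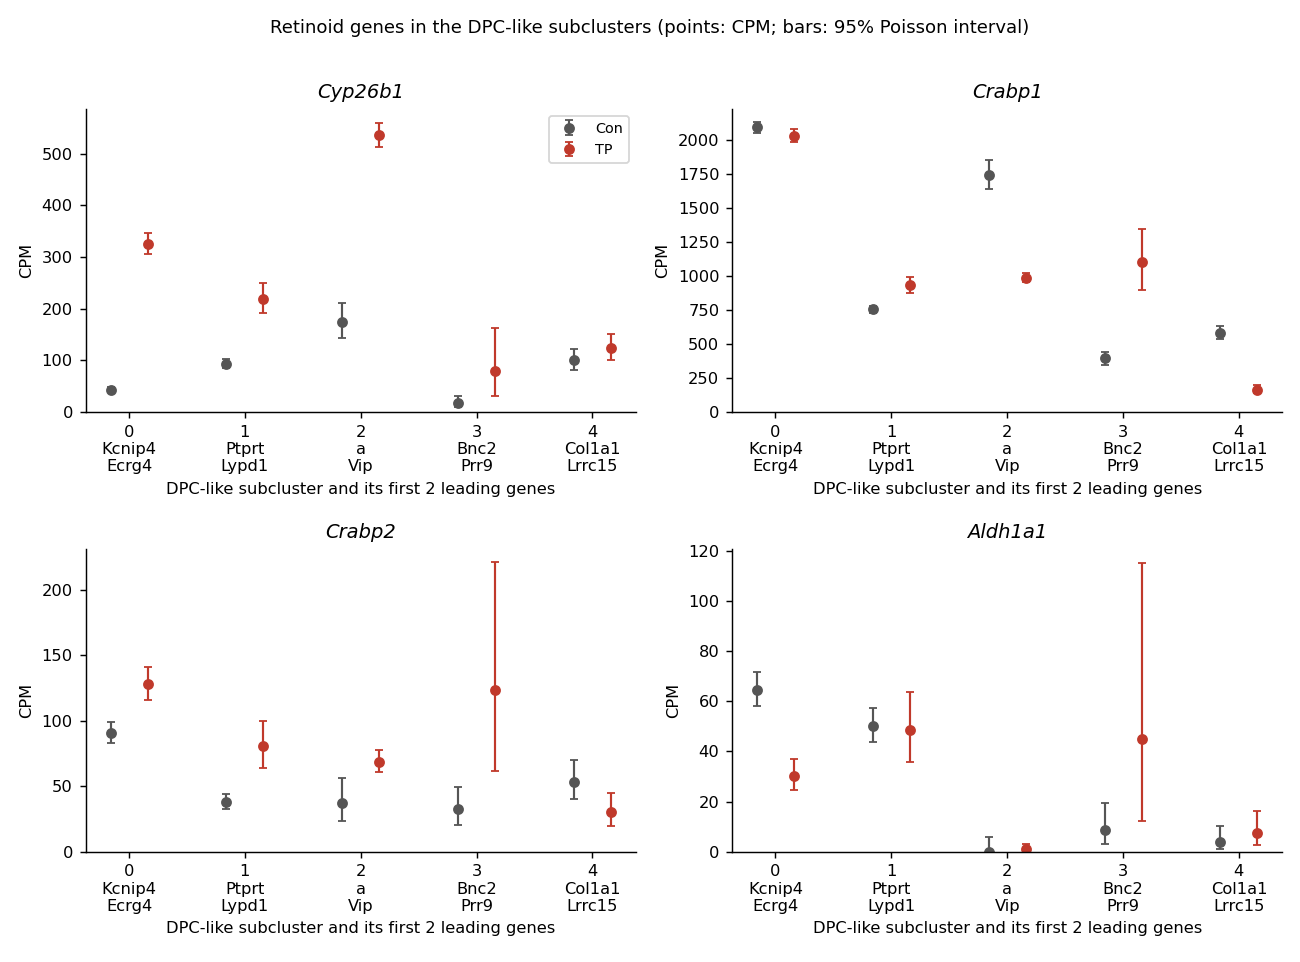
Levels of Cyp26b1, Crabp1, Crabp2 and Aldh1a1 (CPM, linear axes from 0) in DPC-like subclusters 0 to 4, control in grey and TP in red, with 95% Poisson intervals. Cyp26b1 is higher in TP in subclusters 0, 1 and 2 (326, 219 and 536 CPM), Crabp1 is highest in subcluster 0 in both libraries, and Aldh1a1 is near 0 in subcluster 2.

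Genes were also counted together in single DPC-like cells after thinning. A Cyp26b1 UMI was seen in 5.34% of control cells with and 5.28% without a Crabp1 UMI, and in 21.8% and 21.1% of TP cells, which lie within each other's intervals. Crabp2 was seen in 7.92% of control cells with and 3.09% without Crabp1, and in 10.7% and 6.77% of TP cells. Cells of a library share its free RNA and the subclusters differ in both genes, so these shares are a description.

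Rara, a receptor found in most tissues (ENSMUSG00000037992, chr11:98927800-98974942), was spread over all classes with at most 85.5 CPM. Immune-like cells had the highest level, with 85.5 CPM (67.5 to 107) in the control library and 62.1 CPM (51.0 to 74.8) in the TP library. The make-up of the class differed, with lymphocyte markers at a summed 2755 CPM in control and 217 CPM in TP and myeloid markers at 4659 CPM and 18495 CPM, so these are levels of different mixes of cells. Inner bulge germinative layer-like (44.1 CPM and 52.6 CPM), DPC-like (42.0 CPM and 50.7 CPM), cortex-like (40.6 CPM and 44.9 CPM) and inner root sheath-like cells (39.3 CPM and 38.4 CPM) followed in control, with intervals that overlapped. In TP, endothelial-like cells stood at 59.5 CPM (42.3 to 81.4), an interval that overlapped that of immune-like cells. Granular-like cells were lowest, at 16.2 CPM and 13.1 CPM. No class passed 2-fold, and for immune-like cells 0 of 2 genes tested did, beside 13.6% of all genes higher and 14.8% lower. Rara overlaps the annotated genes Gm46294 and Gm22061.

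Rarg, the receptor known as the main Rar of the epidermis (ENSMUSG00000001288, chr15:102234938-102257522), was highest in the epidermis, with less than 2-fold between libraries in every class tested but 1. Basal-like cells stood at 194 CPM (184 to 205) and 173 CPM (166 to 180), suprabasal-like cells at 175 CPM (167 to 184) and 164 CPM (159 to 169), upper hair follicle-like cells at 166 CPM and 171 CPM and granular-like cells at 156 CPM and 148 CPM. In TP the basal-like, suprabasal-like and upper hair follicle-like intervals overlapped, and in control those of basal-like and suprabasal-like cells did. DPC-like cells stood at 127 CPM (121 to 134) and 97.4 CPM (91.4 to 104), with a ratio of 0.764 (0.705 to 0.829). Melanocyte-like cells alone passed 2-fold, at 66.8 CPM (92 UMIs) and 20.9 CPM (23 UMIs), the 1 gene tested there, where 4.66% of all genes were higher and 10.5% lower. Both levels were below those of inner root sheath-like cells (126 CPM and 121 CPM), and inner root sheath markers summed to 3431 CPM and 337 CPM in melanocyte-like cells. Upper hair follicle-like cells had 0 of 4 genes higher and 1 lower, beside 1.3% and 2.16%. The lower gene was Crabp1, near its level in inner root sheath-like cells. Inner bulge germinative layer-like cells had 0 of 4 in either direction, beside 1.12% and 1.59%. In endothelial-like cells 0 of the 9 genes reached 100 UMIs, beside 5.07% of all genes higher and 3.43% lower.

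Over the 13 classes, 21 of 55 pairs of gene and class with at least 100 UMIs passed 2-fold, 9 higher and 12 lower, where over the same classes 3.04% of all pairs of gene and class were higher and 5.39% lower. The 9 higher pairs were Cyp26b1 in 3 classes, Crabp2 in 5 and Dhrs9 in 1. The Cyp26b1 classes included inner root sheath-like cells, the rough measure of free RNA, at 2.15 CPM in control and 5.51 CPM in TP. Cortex-like cells stood under them for Cyp26b1, at 0.711 CPM (0.307 to 1.40) and 1.85 CPM (0.677 to 4.02). That level is therefore not a floor of free RNA. In cortex-like cells the Crabp2 levels were in or under the range of most inner root sheath-like clusters. Crabp2 in granular-like and suprabasal-like cells and Dhrs9 in granular-like cells did not pass 2-fold in the clusterings at other resolutions. Of the 12 lower pairs, 7 were Crabp1 and 3 were Aldh1a3, all at levels far under those of their leading class and most of them near or under that of inner root sheath-like cells, and the other 2 were Aldh1a1 in DPC-like and Rarg in melanocyte-like cells.

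Of the 5 unnamed clusters, cluster 13 is the one with the highest Dhrs9 level. In cluster 6, 1 of 5 genes tested was higher, Crabp2 with 2.04 CPM and 7.14 CPM, and 0 were lower, beside 2.52% and 1.08% of all genes. In cluster 10, 0 of 3 were higher and 1 was lower, Crabp1 with 24.7 CPM and 7.59 CPM, beside 1.31% and 1.22%. In cluster 0, which had medians of 752.5 and 731 UMIs per cell, 0 of 4 passed 2-fold, beside 4.53% higher and 8.01% lower, and in cluster 29 none reached 100 UMIs (4.42% and 1.92%).

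The other genes of the pathway were read from a list of 53. Of 44 with at least 100 UMIs, 10 were higher and 2 were lower in TP over all kept cells (7.68% and 9.36% of all genes), and with control class shares 1 was higher, Adh1, and 1 was lower, Ces1d, beside 3.32% and 2.53% of all genes. Ces1d is named after its value was seen. Among carriers, Stra6, the retinol uptake receptor, fell from 22.3 CPM to 6.64 CPM, a ratio of 0.298 that was 0.603 with control class shares. It was highest in companion layer and medulla-like cells, at 152 CPM and 118 CPM. Rbp4, the retinol carrier of plasma, rose from 0.490 CPM to 3.11 CPM on 53 and 425 UMIs, of which DF-like cells held 73.6% and 90.6%, at 71.2 CPM and 79.0 CPM. With control class shares its ratio was 1.499 in place of 6.34. Among cellular binding proteins, Rbp2 rose from 15.1 CPM to 53.2 CPM (ratio 3.53, and 1.997 with control class shares) and Fabp5 stood at 2050 CPM and 1389 CPM.

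Of the enzymes that oxidise retinol, Adh1 rose from 11.3 CPM to 40.0 CPM, Adh7 from 13.6 CPM to 37.5 CPM, Rdh1 from 3.38 CPM to 9.10 CPM and Rdh16 from 0.888 CPM to 2.37 CPM. With control class shares the ratio of Adh1 was 2.02, and those of Adh7, Rdh1 and Rdh16 were 1.54, 1.55 and 1.65. Granular-like cells held 51.0% of Adh1 and 64.1% of Rdh1 UMIs in TP, and within them Adh1 stood at 57.9 CPM and 93.1 CPM, less than 2-fold apart. Rdh12, the retinal reductase with most UMIs, stood at 53.3 CPM and 89.3 CPM. Dgat1, which can esterify retinol, stood at 15.5 CPM and 10.8 CPM, Retsat, a retinol saturase, at 5.14 CPM and 4.77 CPM, and Aldh8a1 had 7 and 8 UMIs. The other Cyp26 enzymes were hardly seen, with 7 and 0 UMIs of Cyp26a1 and 6 and 8 of Cyp26c1, and Cyp2s1 stood at 4.35 CPM and 5.79 CPM.

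Rarb, the third retinoic acid receptor, fell from 39.2 CPM to 15.9 CPM over all cells, a ratio of 0.406 that was 0.654 with control class shares. Melanocyte-like cells held 52.8% and 41.8% of it, at 1625 CPM and 828 CPM, and DPC-like cells stood at 117 CPM and 77.4 CPM, both less than 2-fold apart. At resolution 2, 1 melanocyte-like cluster had Rarb among its 10 leading genes, with 428 control and 60 TP cells. The other, led by Ptgds, Pmel and Dct, held 54 and 100, so the melanocyte-like levels are of different mixes of cells. Rxra, the partner receptor with most UMIs, stood at 51.4 CPM and 51.5 CPM and the corepressor Ncor1 at 465 CPM and 387 CPM. Among genes known to respond to retinoic acid, Rarres1 rose from 19.2 CPM to 69.1 CPM, Rarres2 from 8.79 CPM to 35.9 CPM, Tgm2 from 1.66 CPM to 4.14 CPM and Cd38 from 0.620 CPM to 1.37 CPM. With control class shares their ratios were 1.99, 1.15, 1.203 and 1.02 in place of 3.60, 4.09, 2.503 and 2.21, so none of the 4 passed 2-fold. DF-like cells held 85.0% of Rarres2 in TP, at 595 CPM in control and 857 CPM in TP. Rai14, the gene of this group with most UMIs, stood at 172 CPM and 171 CPM.

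Within DPC-like cells 3 of 32 pathway genes were higher and 2 were lower (3.66% and 5.79% of all genes). Rbp2 rose from 2.73 CPM to 7.75 CPM, Rdh5, a retinol dehydrogenase, from 8.94 CPM to 24.1 CPM, and Dhrs3, which turns retinal back to retinol, from 34.8 CPM to 75.9 CPM. Stra6 fell from 7.37 CPM to 1.19 CPM and Fabp5 from 874 CPM to 267 CPM. In the same cells the summed level of the granular markers was 26.1 CPM (control) and 77.6 CPM (TP), that of the suprabasal IFE markers 1872.5 CPM and 3420 CPM, and that of the basal IFE markers 1304 CPM and 1305 CPM. Marker sums of other follicle classes fell there. Those of the inner root sheath were 2162 CPM and 417 CPM, of the cortex 213 CPM and 56.9 CPM, and of the outer bulge 608 CPM and 299 CPM. The part of all these marker shifts in the higher and lower genes was not tested.

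The genes whose pattern over 36 points of class and library was most like that of each retinoid gene were found by Pearson correlation of log2(CPM + 1) among 13341 genes, as a description. The points of a library share depth and free RNA. Cyp26b1 was most like Pcdh9 (r = 0.89), Sobp (0.89) and Dkk2 (0.88). Crabp1 was most like Mdk (0.91), Wif1 (0.91) and Alx4 (0.89), Crabp2 like Prdx5 (0.84), Orm1 (0.83) and Nudt17 (0.82), and Aldh1a1 like Cys1 (0.92) and Rian (0.92). Aldh1a3 was most like Prr5l (0.88), Nim1k (0.87) and Them4 (0.86), Rarg like Nipal2 (0.86), Mcc (0.84) and Exph5 (0.84), Rara like Plekhm3 (0.78), Pias1 (0.78) and Rap1gds1 (0.75), and Dhrs9 like Wfdc18 (0.72), Rnf223 (0.71) and Cyp27a1 (0.70).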

How the data were processed

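Dorsal skin of 15 mice per group was pooled by the authors into 1 droplet library. The deposited values are raw counts of UMIs per gene and barcode that the authors made with Cell Ranger 8.0.1 (the version is from the submitters' processing notes) on the mm10 annotation, without normalization. Cell Ranger had already kept the barcodes it called as cells, and the study's own limits come after these files. The control and TP libraries were used. TP + Ab samples are not analysed here.

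These limits were applied here: 200 to 8000 genes and at most 10% mitochondrial UMIs. The procedure of DoubletFinder was rewritten and removed the 7.5% of barcodes with most artificial neighbours. Clusters came from Seurat 5.3.0 in R 4.3.3 (reciprocal PCA integration in place of the default anchors, 30 components, resolution 1), with the retinoid and pathway genes kept out of the 1983 features. A cluster took a class name from the marker list with the highest score (mean log2 fold over the other clusters), if that score was at least 1, at least 3 markers were detected and its 10 leading genes did not hold more markers of another class. A cluster of shallow cells also needed a marker of its own class among those genes. These naming limits were set after clusters had been seen. Sums, exact intervals and thinning used scipy 1.17.1, numpy 2.4.6, pandas 2.3.3 and scikit-learn 1.9.0 under Python 3.11.15. From edgeR 4.0.16 only TMM factors were taken. The rule for 2-fold differences was run on simulated whole-library counts with larger planted folds and counting error alone. Those counts held no variation between mice or libraries and no cell classes, so they cannot show how reliable the counts reported here are.

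The 9 genes and the lists were chosen with earlier results of these data known. All 9 are named. Other pathway genes are named where they have most UMIs of their role, or at least 200 UMIs and a 2-fold difference over all cells or are counted within DPC-like cells. The last of these were named after their values were seen. Similar genes are the 3 of highest correlation with at least 200 UMIs, of which 1 is not reported here. In DPC-like cells, resolution 0.3 and 20 components gave the subclusters. Alternatives were TMM factors, doublets kept, other depths, other minimum counts, other log scales, class shares and other resolutions.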

Additional observations from a re-analysis of the deposited data

Results flagged for a closer look

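Crabp1 differed in opposite directions in 2 subclusters of the DPC-like class that both held cells of each library. In both, markers of another cell type summed higher than DPC markers in each library, so neither is a clear papilla group. In the subcluster led by Bnc2, Prr9 and inner root sheath keratins its log2 ratio of TP over control was 1.495, and in the subcluster led by Col1a1, Lrrc15 and Acta2 it was -1.82. Markers of other cell types moved in both. In the former, inner root sheath markers summed to 7005 CPM in control and 3328 CPM in TP, against 3284 CPM and 2237 CPM for DPC markers. In the latter, DF markers summed to 5256 CPM and 15930 CPM and dermal sheath markers to 1557 CPM and 3160 CPM, against 3938 CPM and 1208 CPM for DPC markers. With 1 library per group this difference was not tested.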

How the results depend on the processing

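No paired analysis was possible because each group is 1 library, and for the same reason no replicate could be left out. Of the 8 genes tested, 3 passed 2-fold over all kept cells in the analysis as reported (7.68% of all genes higher, 9.36% lower). With log2 of counts per 10000 plus 0.1, 2 did (1.87% and 0.871%), and 2 did with the class shares of control in both libraries (3.32% and 2.53%). In these settings Dhrs9 had log2 ratios of 0.43 and 0.22. The class with the highest level was shared by both libraries for 8 of 8 genes, and for 7 of 8 after thinning to 1000 UMIs, under the mean of ln(counts per 10000 + 1) and at resolution 2. The count of pairs of gene and class past 2-fold moved from 21 of 55 (8.43% of all pairs of gene and class) to 8 of 28 after thinning (5.37%), to 42 of 110 with no minimum count (25.3%), and to 7 of 55 with log2 of counts per 10000 plus 0.1 (3.76%). It was 17 of 56 (7.75%) and 14 of 55 (7.80%) in clusterings at resolutions 0.5 and 2. The count of other pathway genes past 2-fold was 12 of 44 as reported (7.68% of all genes higher, 9.36% lower). It was 5 with log2 of counts per 10000 plus 0.1 (1.87% and 0.871%) and 2 with control class shares (3.32% and 2.53%). Of the values of single genes in single classes under the alternatives, 407 kept their side of 2-fold, 31 no longer passed 2-fold and 6 newly passed it. Of the 407, 41 changed sign, all within 2-fold both ways, among them Aldh1a1 over all cells from -0.23 to 0.04 with TMM factors. TMM factors moved the median log2 ratio of all genes from -0.23 to 0.03. Leaving out the unnamed cluster of lowest depth, leaving out the subcluster with inner root sheath keratins and taking off the level of inner root sheath-like cells were chosen after seeing the data. Depth limits Aldh1a2, with 17 and 27 UMIs, and the endothelial-like cells, where 0 of the 9 genes reached 100 UMIs.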
